A study of Mus musculus with 20 samples.

Results

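Aminoacyl-tRNA synthetases are the enzymes that join each amino acid to its transfer RNA. They are described here in pyramidal cells of the mouse subiculum, the region through which much of the output of the hippocampus leaves. The 36 genes were chosen by symbol, out of 37607 gene rows of the bulk table. Of these, 16 encode mitochondrial enzymes and 20 encode enzymes of the cytosol. Lars2, the mitochondrial leucyl-tRNA synthetase, was put at the centre because its level had already been seen to differ between populations in these libraries. Its values in that contrast are therefore given as a description, without a test. The other 35 genes were taken by name, whatever their values.

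Each cell needs these enzymes in both compartments. Cytosolic synthetases serve the ribosomes that read nuclear messages, and several of them sit with scaffold proteins in a multisynthetase complex. Mitochondrial synthetases are encoded in the nucleus, imported, and serve the small set of respiratory chain proteins made inside the organelle. Most amino acids have a separate gene for each compartment, marked by a final 2 in the symbol of the mitochondrial enzyme. The stress factor ATF4 switches on several cytosolic synthetase genes when amino acids are short, through promoter elements named CARE.

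The bulk data are 12 RNA-seq libraries from fluorescent subiculum pyramidal cells collected by manual sorting, with 3 libraries for each of 4 projection targets, labelled NA, PFC, VHN and RSC. These codes are not explained in the labels. NA usually stands for nucleus accumbens, PFC for prefrontal cortex and RSC for retrosplenial cortex. VHN is left as the label has it. The same cell type was also profiled in 384 wells on 4 plates, with no label tying a well to a target or an animal. Strain, age, sex and the tracer that marked the cells are not given in the sources used here, nor is whether the replicates came from separate animals, so the spread between libraries may be partly technical. Labels name no treatment or genotype.

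Depth ran from 10777271 fragments in genes (PFC replicate 3) to 20904122 (RSC replicate 3). NA replicate 2 had the TMM scaling factor farthest from 1, at 0.825, against 0.946 to 1.07 in the other 11 libraries. Pyramidal markers were present in every library: the summed level of all 11 ran from 11017 to 23618 CPM (fragment counts scaled to a common library size by TMM) in NA and PFC and from 14349 to 19964 CPM in RSC and VHN. Most of that sum is Snap25 (6251 to 17062 CPM), and 6 of the 11 markers differed in the test described below, 5 higher in NA and PFC (Neurod6 with log2 1.83 among them) and Slc17a6 lower (log2 −2.01). Interneuron markers differed too: 4 of 8 that could be tested passed, each with the lower level in NA and PFC. Gad2, which makes the transmitter GABA, was at most 7.40 CPM in NA and PFC and stood at 43.3 to 176.7 CPM in RSC replicates 2 and 3 and VHN replicate 3, but at most at 0.238 CPM in the other 3 RSC and VHN libraries. Pvalb was spread more widely, at 0.683 to 8.79 CPM over all 6 of these libraries. Summed levels of the 12 interneuron genes overlapped, at 257.8 to 1013 CPM in NA and PFC against 385.9 to 640.4 CPM in RSC and VHN, but most of that sum is Cck (238.0 to 1008 CPM and 266.5 to 509.7 CPM). The counts below were also taken without the 3 libraries high in Gad2, and without NA replicate 2 and PFC replicate 3, and are given where they changed. The defining microglial gene Tmem119, endothelial Cldn5 and glial Olig2 and Pdgfra had no fragment in any library. In bulk libraries, fewer cells of a type and less RNA per cell cannot be told apart.

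The 5′ flanks of 3 members are shown as examples from different places in the family. Lars2 was the highest on the NA and PFC side, Farsb was the called member lowest there, and Gars carries a CARE, the element by which amino acid shortage is read. Each line gives the 250 bases before the RefSeq start on GRCm38.p6, 5′ to 3′ on the gene's strand. Lars2 is at chr9:123366677-123366926 on the plus strand, Farsb at chr1:78488898-78489147 on the minus strand and Gars at chr6:55037751-55038000 on the plus strand. Capitals mark the CARE.
Lars2: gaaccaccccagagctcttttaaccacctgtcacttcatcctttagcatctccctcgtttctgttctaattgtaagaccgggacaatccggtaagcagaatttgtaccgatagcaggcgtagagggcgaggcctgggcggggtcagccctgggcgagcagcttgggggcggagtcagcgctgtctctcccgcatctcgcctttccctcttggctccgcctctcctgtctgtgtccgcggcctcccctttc
Farsb: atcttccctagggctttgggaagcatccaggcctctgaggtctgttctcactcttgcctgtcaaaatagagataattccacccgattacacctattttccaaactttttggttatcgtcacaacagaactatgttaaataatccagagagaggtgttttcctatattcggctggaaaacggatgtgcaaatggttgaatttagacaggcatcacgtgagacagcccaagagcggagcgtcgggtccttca
Gars: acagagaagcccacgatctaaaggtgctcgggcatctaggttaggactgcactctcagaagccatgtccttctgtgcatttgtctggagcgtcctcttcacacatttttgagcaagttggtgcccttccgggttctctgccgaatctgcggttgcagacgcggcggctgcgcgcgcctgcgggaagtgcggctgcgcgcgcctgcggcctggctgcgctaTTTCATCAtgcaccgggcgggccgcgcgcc
The search used CARE as TGATGNAA, where N is any base, on both strands. RefSeq held a flank for 27 of the 36 genes, in 28 windows. CARE was present in 3 of 13 cytosolic windows (Aars, Gars and Tars) and in 0 of 15 mitochondrial windows, against 3.45% of the 32851 windows of all genes. The Lars2 and Farsb flanks did not hold it. No CARE holder passed the test described below, with log2 differences of −0.13 for Aars, −0.04 for Gars and −0.51 for Tars.

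Lars2 (ENSMUSG00000035202) was the synthetase transcript with the highest level in all 12 libraries. In NA it stood at 13236, 17269 and 11558 CPM, and in PFC at 9327, 6987 and 12300 CPM. In RSC it stood at 1419, 884.1 and 935.2 CPM, and in VHN at 2720, 2103 and 951.1 CPM. All 6 NA and PFC libraries were above all 6 RSC and VHN libraries, with no overlap. The mean was 11780 ± 3509 CPM (SD, n = 6) against 1502 ± 756.0 CPM (SD, n = 6), a ratio of 7.84. By population the order was NA (14021 ± 2935 CPM, SD, n = 3), PFC (9538 ± 2663), VHN (1925 ± 897.7) and RSC (1080 ± 295.3). Libraries of the neighbours NA and PFC overlapped, as did those of VHN and RSC, while PFC and VHN libraries did not.

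The same picture held per length. The authors' FPKM of Lars2 (fragments scaled by transcript length and depth) ran from 1771 to 4366 in NA and PFC and from 221.3 to 682.0 in RSC and VHN. In NA and PFC, Lars2 was the first or second most abundant of all genes by fragments in every library. In RSC and VHN its rank ran from 14 to 134. It took 1.13% ± 0.244 of all gene fragments in NA and PFC (SD, n = 6) and 0.156% ± 0.0821 in RSC and VHN (SD, n = 6). Lars2 exceeded the next synthetase in FPKM by 26.1 to 42.6 times in NA and PFC, and by 1.17 to 5.57 times in RSC and VHN. That next synthetase was Nars in 10 of 12 libraries and Rars in the other two.

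**Figure D1:**
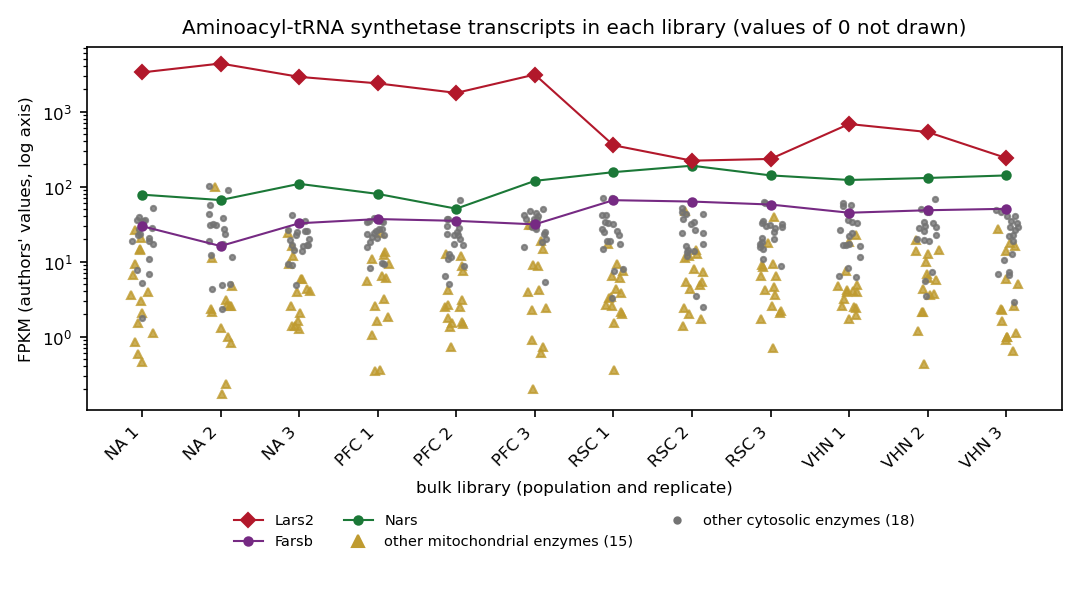
FPKM of each of the 36 synthetase genes (y, log axis) in each of the 12 bulk libraries (x), with Lars2, Nars and Farsb as lines that only join points of one gene. Lars2 lay between 1771 and 4366 in NA and PFC and between 221.3 and 682.0 in RSC and VHN. The remaining genes were below Lars2 in every library, with gene means from 1.61 to 115.2. In RSC replicate 2 Lars2 was only 1.17 times Nars. Values of 0 are not drawn.

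The family without Lars2 did not share this pattern. Summed over the other 35 genes, the level was 1553 ± 190.8 CPM in NA and PFC (SD, n = 6) against 1949 ± 116.3 CPM on the RSC and VHN side (SD, n = 6), the opposite order to Lars2. The 20 cytosolic genes gave 1312 ± 146.6 CPM against 1686 ± 91.30 CPM, with libraries of 1111 to 1543 CPM and 1561 to 1795 CPM, which did not overlap. The other 15 mitochondrial genes gave 240.9 ± 46.71 CPM against 263.2 ± 40.50 CPM, and their libraries overlapped. These sums carry no test. Lars2 made up 84.5% to 91.0% of all synthetase CPM in NA and PFC and 29.4% to 60.4% in RSC and VHN.

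Gene by gene, all 36 members passed the filter on low counts. One model was fitted over all 12 libraries (edgeR's quasi-likelihood test, Benjamini-Hochberg adjustment over 13916 genes, threshold 0.05). For NA and PFC against RSC and VHN, 14.2% of all genes tested were called, 7.58% as higher in NA and PFC and 6.66% as lower. Of the 35 synthetases, 0 were called higher and 2 were called lower (Nars and Farsb), while 33 did not pass. Without adjustment 4 of the 35 had p under 0.05. The share of all genes under this limit was not counted, but it is at least the 14.2% called after adjustment. The median log2 difference of the 35 was −0.17, beside 0.01 over all genes, and 27 of the 35 lay below 0, beside 49.4% of all genes. Lars2 itself had a log2 difference of 3.00 (SE 0.22) in this fit. That SE is a description only, since it does not allow for the choice of Lars2 by this difference.

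The 4-group test, which asks whether any population differs, called 8.93% of all genes and the same 2 synthetases. Among the 6 pairwise contrasts there were 3 synthetase calls. NA against RSC, where 5.83% of all genes were called, gave Nars and Farsb. PFC against RSC, where 9.76% were called, gave Nars. The other pairs gave none, with 0.438% of all genes called for NA against PFC, 2.75% for NA against VHN, 5.09% for PFC against VHN and 0% for RSC against VHN.

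Nars (ENSMUSG00000024587), the cytosolic asparaginyl-tRNA synthetase, was the most abundant of the other members, with a mean of 115.2 FPKM. It stood at 210.8, 177.3 and 294.0 CPM in NA, and at 212.6, 135.7 and 319.5 CPM in PFC. It stood at 421.4, 513.8 and 382.8 CPM in RSC, and at 331.1, 348.2 and 377.8 CPM in VHN. All RSC and VHN libraries were above all NA and PFC libraries, though PFC replicate 3 and VHN replicate 1 were close. The mean in RSC and VHN was 1.76 times that in NA and PFC. The log2 difference was −0.81 (SE 0.19, edgeR adjusted p = 0.0077), and the 4-group adjusted p was 0.041.

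Farsb (ENSMUSG00000026245) encodes the beta subunit of the cytosolic phenylalanyl-tRNA synthetase, and its 5′ flank is printed above. It stood at 64.55, 34.19 and 69.51 CPM in NA, and at 78.87, 74.77 and 67.89 CPM in PFC. It stood at 141.8, 136.3 and 123.5 CPM in RSC, and at 94.97, 103.5 and 108.6 CPM in VHN. RSC was highest, VHN next, and no library of the 2 sides overlapped. The mean in RSC and VHN was 1.82 times that in NA and PFC. The log2 difference was −0.86 (SE 0.20, edgeR adjusted p = 0.0079), and the 4-group adjusted p was 0.032. Farsa encodes the alpha subunit of the same enzyme and was looked at because of Farsb. It had a log2 difference of 1.005 (SE 0.60, edgeR adjusted p = 0.30) with overlapping libraries. PFC replicate 3 stood at 66.2 CPM, against 3.32 to 16.2 CPM in the other NA and PFC libraries, and the log2 difference was 0.35 without it (adjusted p = 0.77). The difference between the 2 subunits was not tested.

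**Figure D2:**
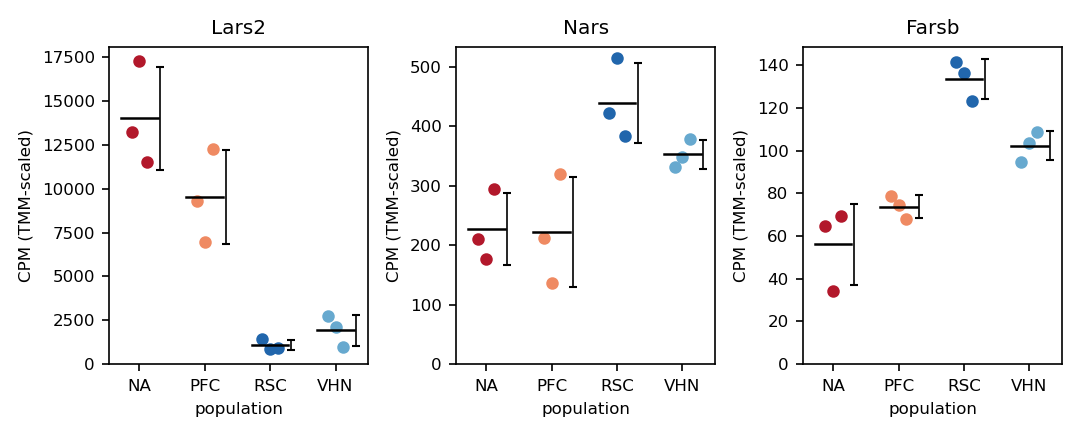
CPM (y, from 0) of Lars2, Nars and Farsb by population (x), with 1 point per library, a bar at the mean of 3 and its SD beside it. Lars2 was higher in NA and PFC (6987 to 17269), while Nars (135.7 to 319.5) and Farsb (34.19 to 78.87) were lower there than in RSC and VHN.

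Both calls held in the contrast of the 2 sides when any single library was left out, with edgeR adjusted p of 0.0012 to 0.026 for Nars and 0.0058 to 0.027 for Farsb. Without RSC replicates 2 and 3 and VHN replicate 3, Nars had a log2 difference of −0.74 and Farsb of −0.87, about as large, but neither passed (edgeR adjusted p = 0.12 and 0.15) and 0 of the 35 were called, beside 4.66% of all genes. In that fit the median of all genes was 0.18 and 2 of the 35 had an unadjusted p under 0.05, beside at least 4.66% of all genes. Neither passed the 4-group test once any single RSC or VHN library was left out. That test then called 892 to 1079 genes, against 1243 with all libraries. Without NA replicate 2, 4 synthetases were called lower (Farsb, Hars, Nars and Rars), and without NA replicate 2 and PFC replicate 3 the 4 were Cars, Farsb, Nars and Rars. These 4 of 35 stood beside 14.7% and 15.9% of all genes called in those fits.

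The remaining cytosolic genes spanned log2 differences from −0.73 (Yars, SE 0.29, edgeR adjusted p = 0.11) to 1.005 (Farsa), and 17 of the 20 lay below 0. Rars, the arginyl enzyme and a member of the multisynthetase complex, was second in level among the cytosolic genes at 56.1 FPKM. It stood at 54.74, 165.5 and 38.90 CPM in NA, and at 58.85, 65.55 and 54.76 CPM in PFC. It stood at 128.2, 106.7 and 97.55 CPM in RSC, and at 95.50, 69.37 and 83.38 CPM in VHN. NA replicate 2 was above every other library, and the remaining 5 NA and PFC libraries were below all of RSC and VHN. The log2 difference was −0.42 (SE 0.29, edgeR adjusted p = 0.39), and −0.86 without NA replicate 2 (adjusted p = 0.0071).

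Lars, the cytosolic counterpart of Lars2 for leucine, did not follow it. It stood at 42.56, 19.51 and 63.10 CPM in NA, and at 36.83, 41.51 and 60.58 CPM in PFC. It stood at 58.26, 68.05 and 78.66 CPM in RSC, and at 45.28, 75.92 and 49.25 CPM in VHN. The 2 sides overlapped, and the log2 difference was −0.50 (SE 0.29, edgeR adjusted p = 0.29). The mean of Lars was 13.7 FPKM, against 1676 FPKM for Lars2.

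None of the other 15 mitochondrial synthetases was called in any of these tests. Of the 15, 1 (Cars2) had an unadjusted p under 0.05, beside at least 14.2% of all genes. Their median log2 difference was −0.12, with 10 below 0 and 5 above, from −1.74 (Cars2, SE 0.72) to 1.34 (Pars2, SE 0.78). Most were rare, with mean FPKM from 1.61 (Ears2) to 30.1 (Iars2) and a median of 3.89, so that their errors were wide. The coefficient of variation over the 12 libraries had a median of 69.2% for these 15 and of 35.4% for the 20 cytosolic genes. Cars2, the cysteinyl enzyme, was the one other member with no overlap between the sides, at 0.281 to 4.93 CPM in NA and PFC, with 5.02 to 12.3 CPM in VHN and RSC, but it did not pass (edgeR adjusted p = 0.13). Lack of overlap with RSC and VHN on top occurred in 3 of the 35 and in 3.95% of all genes, and lack of overlap either way in 7.52% of all genes.

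Iars2, the isoleucyl enzyme, and Yars2, the tyrosyl enzyme, were the most abundant mitochondrial members after Lars2. Iars2 stood at 86.67, 220.6 and 75.56 CPM in NA, at 65.35, 47.67 and 66.39 CPM in PFC, at 94.20, 115.6 and 102.5 CPM in RSC, and at 86.36, 78.60 and 114.3 CPM in VHN. NA replicate 2 was the highest of its libraries, and all 3 PFC libraries were below all of RSC and VHN. The log2 difference was −0.17 (SE 0.25, edgeR adjusted p = 0.71), and −0.50 without NA replicate 2 (adjusted p = 0.092). Yars2 stood at 23.36, 6.002 and 22.63 CPM in NA, at 14.04, 11.99 and 46.04 CPM in PFC, at 14.77, 18.86 and 24.54 CPM in RSC, and at 25.42, 18.76 and 27.83 CPM in VHN. Its NA and PFC libraries spread around those of RSC and VHN, with a log2 difference of −0.08 (SE 0.45, edgeR adjusted p = 0.93) whose sign turned in 5 of 20 alternative fits.

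**Figure D3:**
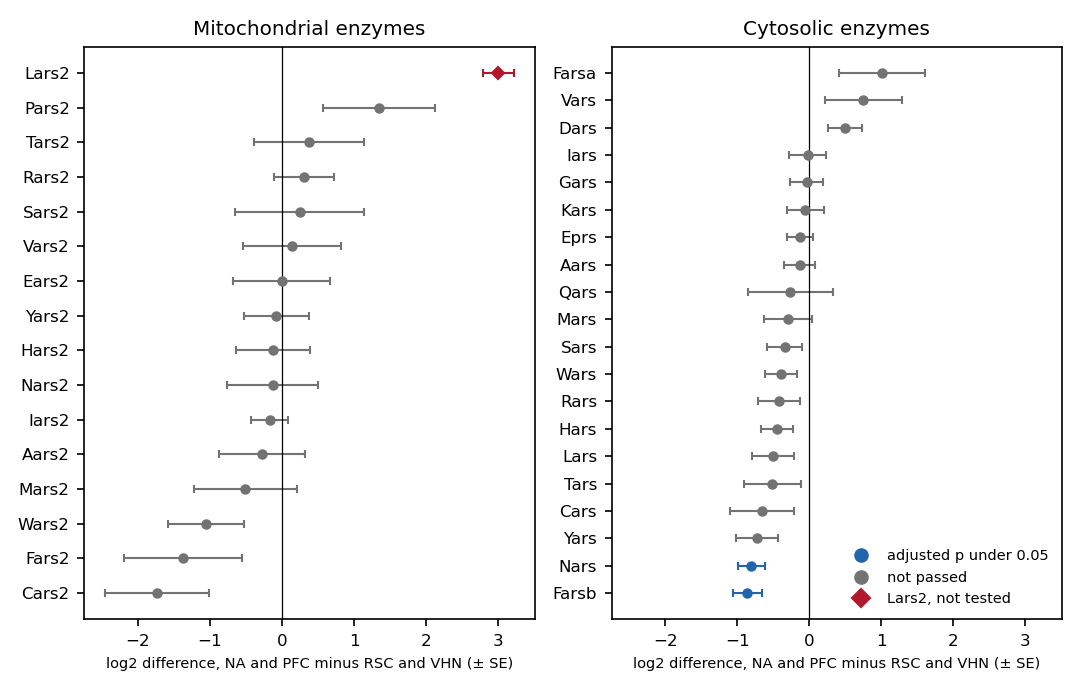
Log2 difference of NA and PFC minus RSC and VHN (x, bars ± SE) for the 16 mitochondrial (left) and 20 cytosolic (right) synthetase genes (y). Lars2 stood at 3.00, the next gene Pars2 at 1.34, and the called genes Nars and Farsb at −0.81 and −0.86. Lars2 was not tested, and its bar does not allow for its choice by this difference.

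Across the 12 libraries, Lars2 and the other synthetases were not correlated in one direction. Pearson's r of log2(CPM + 1) with Lars2 had a median of −0.20 over the 35 genes, was below 0 for 28 of them, and ran from −0.89 for Farsb to 0.42 for Dars, the cytosolic aspartyl enzyme. These 12 points share the 4 populations, so r mostly restates the group levels. Of 8517 genes with a symbol and a mean of at least 10 CPM, those most like Lars2 over the 12 libraries were Lancl2 (r = 0.98), Napb (0.96), Dpysl2 (0.96), Pianp (0.94), Celf3 (0.94), Ly6e (0.94), Chrm1 (0.94) and Tmem106b (0.93). Dpysl2 is a regulator of axonal microtubules, Napb an attachment protein of vesicle fusion and Chrm1 the M1 muscarinic receptor. Among the least like it were Ndufb10 (r = −0.96), a subunit of respiratory complex I, and Slc25a46 (−0.96), a protein of the outer mitochondrial membrane. Lancl2 had a mean of 273.2 ± 81.6 CPM in NA and PFC, with 79.1 ± 22.9 CPM in VHN and RSC (SD, n = 6 each), and Ndufb10 had 34.7 ± 8.63 CPM and 113 ± 12.6 CPM.

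The machinery around mitochondrial translation was then read from fixed lists in the same fit. Of 83 mitochondrial ribosomal protein genes tested, 9 were lower in NA and PFC, 1 was higher (Mrpl39, named after its value was seen) and 73 did not pass, with a median log2 difference of −0.49. These 10 of 83 are a smaller share than the 14.2% called among all genes. Mrpl18 (log2 −1.33, SE 0.27, edgeR adjusted p = 0.0032), Mrpl21 (−1.33), Mrpl41 (−1.11) and Mrpl12 (−1.55) led those that fell. The 10 calls became 6 without RSC replicate 1 or without VHN replicate 3, 0 without the 3 libraries high in Gad2, and 15 without NA replicate 2 and PFC replicate 3. In these fits, in the same order, 10.7%, 10.8%, 4.66% and 15.9% of all genes were called. Of 13 mitochondrial translation factors, the elongation factors Gfm1 (log2 −1.02) and Tufm (−1.32) were lower, with a list median of −0.66. These are 15.4% of the list, beside 14.2% of all genes called either way and 6.66% called lower. The count was 0 without the 3 libraries high in Gad2, and 10 of the 12 single libraries lowered this count to 0 or 1 when left out (all but NA replicate 3 and PFC replicate 3).

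Genes that act on mitochondrial transfer RNA itself gave few calls. Pus1, which modifies transfer RNA, was the 1 of 17 maturation genes called (log2 −4.06, at 0.263 ± 0.138 CPM against 4.52 ± 2.77 CPM, SD, n = 6 each). That is 5.88% of the list, beside 6.66% of all genes called lower. The count was 2 without NA replicate 3 or without PFC replicate 1, and 0 without the 3 libraries high in Gad2. Of 16 genes that copy and transcribe mitochondrial DNA, 1 was called, the helicase Twnk (log2 −1.90), which is 6.25% of the list beside 6.66% of all genes. Of the 12 single libraries, 9 ended this call when left out (all but NA 3, PFC 1 and RSC 3), as did leaving out either set of libraries together. All 37 mitochondrially encoded genes, transfer RNAs included, had no fragment in any bulk library, so the products of mitochondrial translation could not be read there.

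The largest share of calls came from the nuclear-encoded subunits of oxidative phosphorylation. Mitochondrial translation completes these complexes, except complex II, whose Sdh genes are also in the list. Of 75 tested, 45 were lower in NA and PFC, which is 60% beside 6.66% of all genes, none was higher, and the median log2 difference was −0.84. Uqcrh of complex III (log2 −1.52, SE 0.17, edgeR adjusted p = 2.1e-05) had 83.3 ± 15.7 CPM in NA and PFC, with 238.5 ± 40.9 CPM in VHN and RSC (SD, n = 6 each). Atp5e of the ATP synthase (−1.56), Ndufa4 (−1.45) and Cox6c of complex IV (−1.35) fell by like amounts. Summed over the list, NA and PFC libraries held 8654 to 10266 CPM and RSC and VHN libraries 13322 to 16105 CPM, without overlap. The count was 22 without the 3 libraries high in Gad2, beside 4.66% of all genes. Lars2 thus stood on the other side of this contrast from the respiratory chain genes.

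On the cytosolic side, Aimp1, a scaffold of the multisynthetase complex, was lower in NA and PFC, at 14.1 ± 2.28 CPM against 48.3 ± 3.23 CPM (SD, n = 6 each; log2 −1.78, SE 0.29, edgeR adjusted p = 0.00050). It was the 1 of 3 scaffold genes called, beside 6.66% of all genes called lower, and it was called in every fit tried. Of 6 cytosolic elongation factors, Eef1g (log2 −0.93), Eef1b2 (−1.15) and Eef2 (−0.56) were lower, 50% of the list beside 6.66% of all genes. Eef1g alone was called without the 3 libraries high in Gad2, where 4.66% of all genes were called. Of 17 genes of the ATF4 amino acid response, 0 were called in this test, beside 14.2% of all genes, with a list median of −0.42. That count was 1 or 2 when NA replicate 2, PFC replicate 2 or PFC replicate 3 was left out, and 3 without NA replicate 2 and PFC replicate 3 together. In these fits 11.2% to 15.9% of all genes were called.

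**Figure D4:**
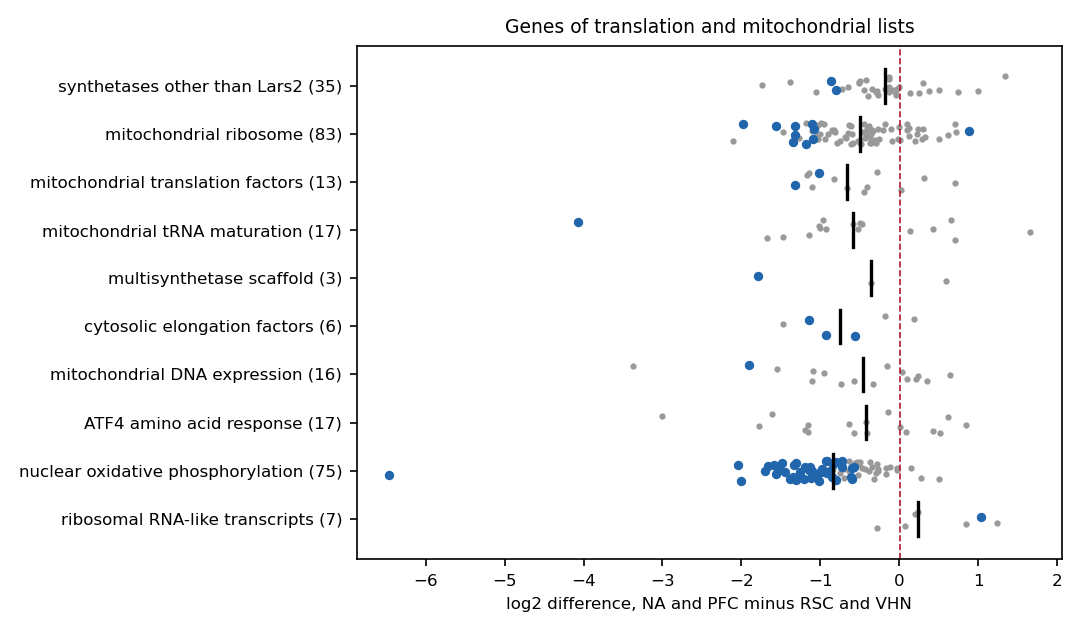
Log2 differences of NA and PFC minus RSC and VHN (x) for the synthetases other than Lars2 and for each list named on the axis (y, number of genes tested in brackets), with called genes in blue, list medians as black bars and the median of all genes as a dashed line. The oxidative phosphorylation list held 45 called genes of 75, all below 0, and the synthetases 2 of 35.

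Whether reads from other sequences could be counted as Lars2 was looked at from sequence. The transcript Lars2-201 has 3894 bases, of which 2706 are coding. Among 141758 transcripts of other genes in GENCODE M21, 2 genes matched it: AA474408 over 196 aligned bases at 80.1% identity, and Gm15564 over 72 bases at 98.6% identity. Both matches end at base 3349 and lie past the coding part. Mitochondrial ribosomal RNAs, also searched with short words, matched over 19 bases at most. Gm42418 and Gm23935, taken up below with the single cells, were searched in the same way. Gm42418 matched over 15 bases and Gm23935 gave no match. In bulk, AA474408 was at most 10.7 CPM and Gm15564 at most 0.469 CPM, but reads assigned to Lars2 would not appear under these genes. Gm15564 is on the list of transcripts that often collect ribosomal RNA reads, and 1 of the 7 genes of that list tested in bulk was higher in NA and PFC (Camk1d, log2 1.04, SE 0.20, edgeR adjusted p = 0.0020), with a list median of 0.24. That is 14.3% of the list, beside 14.2% of all genes. The summed level of the list was 435.8 to 900.2 CPM in NA and PFC, with 351.0 to 449.5 CPM in VHN and RSC, and Camk1d made up 245.6 to 628.7 CPM and 152.6 to 261.9 CPM of it. The part of such reads in the level of Lars2 was not tested. None of the adjacent genes followed Lars2, with Tmem158 at 12.5 and 23.0 CPM on the 2 sides, Limd1 at 2.40 and 2.03 CPM, and Sacm1l at 63.6 and 146.6 CPM.

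Single cells gave another picture of the family. Of 384 wells, 348 had at least 1000 detected genes, with 2795 to 322542 counts and a median of 112401, and 35 of the 36 synthetases were in the table (Mars2 was not). Pooled over these wells, Lars2 had 3078 counts, or 78.4 CPM, and ranked seventh among the synthetases. Nars was first at 200.8 CPM, Eprs second at 152.2 CPM, and Lars stood at 54.1 CPM. These CPM are not per length, so the order between genes is one of counts only. Lars2 made up 4.84% of the family's counts. It still exceeded the other 14 mitochondrial synthetases of the table, which ran from 5.35 to 38.6 CPM.

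At least 1 count of Lars2 was present in 92.2% of wells (321 of 348, exact binomial 95% interval 88.9% to 94.8%), second only to Nars at 97.4%. The other mitochondrial synthetases were present in 9.48% to 54.3% of wells. The median well held 58.6 CPM of Lars2, with quartiles of 26.0 and 109.5 CPM and a maximum of 1898 CPM. A further 25 wells with fewer than 1000 detected genes, holding 9814 counts between them, had 0 counts of Lars2. Intervals cover counting error only.

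The place of Lars2 thus differed between the 2 tables, which were scaled separately. Among 8003 genes with at least 10 CPM in bulk and 1 CPM in single cells, the bulk mean exceeded the pooled single-cell level by a log2 ratio with a median of 0.68. Lars2 had a log2 ratio of 6.40, the fourth highest of all, while the other 27 synthetases compared ran from −2.06 to 2.41. No test applies, since the wells are 1 pooled sample and the library protocols may differ.

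Nts, a neuropeptide gene, and Kit, a receptor gene, both known to vary within the subiculum, were used to split the wells. In the 205 wells with Nts at 10 CPM or more and Kit below, the median of Lars2 was 61.9 CPM (quartiles 28.2 and 110.3). In the 42 wells with Kit and without Nts it was 48.0 CPM (quartiles 28.6 and 81.0). With the split at 50 CPM the order turned, at 60.5 CPM in 212 wells with Nts alone and 65.5 CPM in 23 wells with Kit alone. The ranges between quartiles overlapped, and nothing near the 7.84-fold gap of the bulk populations was seen between them. Wells carry no label of projection target, so this does not compare the bulk groups.

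Well by well, Lars2 was at most weakly correlated with its family. Pearson's r of log2(CPM + 1) over the 348 wells ran from −0.07 to 0.09 for the 34 other synthetases, and within single plates from −0.10 to 0.24 for Nars and from −0.16 to 0.13 for Lars. Among 9881 genes with at least 5 CPM pooled, the gene most like Lars2 was Gm23935, a 57-base entry annotated as a microRNA, with r = 0.44, followed by Gm15564 (0.40), Gm42418 (0.24), Trnp1 (0.22) and Rn18s-rs5 (0.22). Gm15564, Gm42418 and Rn18s-rs5 are on the list of transcripts that collect ribosomal RNA reads, and Gm15564 shares the 72-base stretch described above. Within single plates r with Gm23935 was 0.42 to 0.61, with Gm15564 0.33 to 0.44, and with Gm42418 0.16 to 0.46. Wells share depth and handling within a plate, and the part of ribosomal RNA reads in these values was not tested. In bulk, Gm23935 had 0 fragments, and no gene row carried the symbols Gm42418 or Rn18s-rs5.

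**Figure D5:**
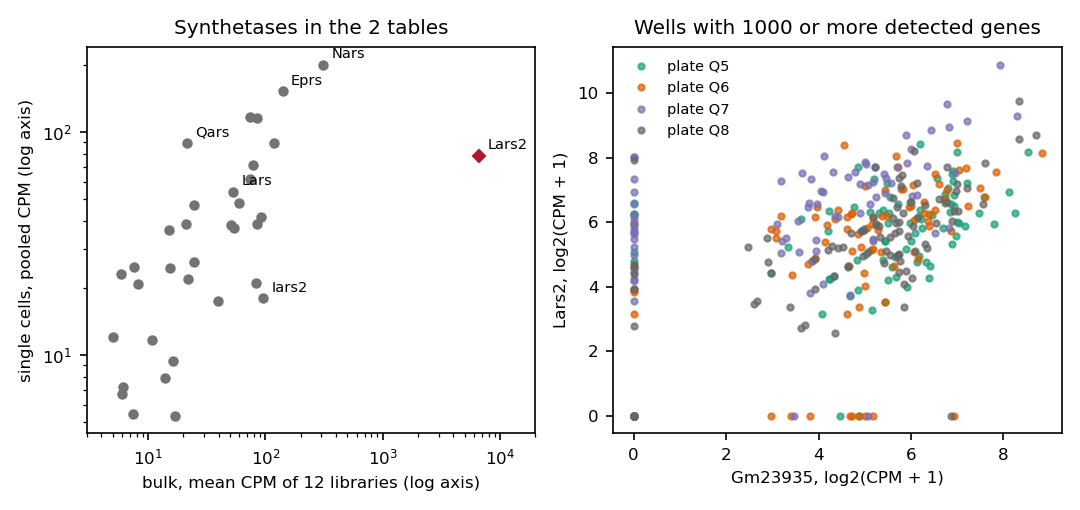
Left, pooled single-cell CPM (y) against mean bulk CPM (x) for 35 synthetases, both on log axes, with Lars2 as a diamond. Right, Lars2 against Gm23935 in log2(CPM + 1) for the 348 wells, coloured by plate. Lars2 stood at 6641 CPM in bulk and 78.4 CPM in single cells, to the right of the band of its family.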

How the data were processed

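Members and gene lists were chosen with earlier results of these data known. The authors deposited bulk values as raw fragment numbers per gene and library, which are expected counts, and as FPKM scaled by a size factor, both per the file headers, and built on mm9 per the submitters' processing notes. The aligner and annotation are not given in the sources used here. Single-cell values are unscaled whole-number counts for each gene in each well, as the authors deposited them. It is not stated whether strand or molecular identifiers were used, so overlapping or multicopy genes are uncertain. The labels list 8 single-cell samples while the table names 4 plates, so wells were treated as 1 pooled sample. The bulk table numbers replicates from 0 and the labels from 1, and the same order was assumed to name libraries.

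Expected counts were rounded to whole numbers (8.51% of those above 0 were not whole), filtered with filterByExpr of edgeR 4.0.16 (smallest count 10), scaled by TMM and fitted in 1 quasi-likelihood model of 4 groups, with 13916 genes tested. Contrasts were NA and PFC against RSC and VHN, the 4-group test and 6 pairwise tests, each with Benjamini-Hochberg adjustment over all genes. The script was tested on simulated data. Symbols came from GENCODE M21 by identifier (87.5% of gene rows). CPM are TMM-scaled, and folds are ratios of mean CPM. Fitted log2 differences average log levels. Sequences shared with Lars2 were searched with blastn 2.17.0 at an expected value of at most 1e-10. A looser limit and shorter words were used for the mitochondrial ribosomal RNAs, Gm42418 and Gm23935. Values in the text go to Lars2, to members called, to the 2 most abundant members of each compartment by FPKM, to Lars, to up to 4 called genes per list with the lowest adjusted p, and to the 8 genes most and 3 least correlated with Lars2. A gene of the last group, and a list, are not reported here. Wells were to be split by Fn1 and Kit. Fn1 was not among the genes of the single-cell table used here, so Nts took its place after the data were seen. Doublets were not called, since the cells were sorted manually, per the labels. No columns were left out.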

Additional observations from a re-analysis of the deposited data

Results flagged for a closer look

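In NA replicate 2, 3 members stood apart from the other 5 NA and PFC libraries by the gap to their nearest neighbour. Farsb was at 34.19 CPM, against 64.55 to 78.87 CPM in the others. Rars was at 165.5 CPM, against 38.90 to 65.55 CPM, and Iars2 at 220.6 CPM, against 47.67 to 86.67 CPM. The library was thus the lowest of its side for one member and the highest for the other pair. In PFC replicate 3, Farsa was at 66.20 CPM, against 3.32 to 16.2 CPM in the other NA and PFC libraries. In single cells, the pooled level of Lars2 on plate Q7 was 128.4 CPM, against 63.44 to 67.97 CPM on the other 3 plates. It was 122.1 CPM without the well highest in Lars2, and the median well of Q7 held 93.0 CPM, against 45.2 to 60.5 CPM. Gm15564 was also highest on that plate, at 27.4 CPM against 11.1 to 13.5 CPM, while Gm23935 was lowest there, at 26.1 CPM against 43.8 to 66.8 CPM. In all, 24 groups of values were looked at in this way, and chance flags about 1 in 20.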

How the results depend on the processing

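Lars2 was chosen for its difference and its sides did not overlap, so its sign could hardly turn in the 19 alternatives. They show only how far the size of the difference moved. The log2 ratio of mean levels was 2.97 as reported and 2.51 to 3.23 otherwise. It was 2.83 to 3.23 when single libraries were left out, 2.98 with the authors' FPKM and 3.06 with the replicate block. The 2 synthetases called for NA and PFC against RSC and VHN stayed 2 with RLE size factors, library totals, no filter, DESeq2, the replicate block and Lars2 left out of the table. That count was 2 to 4 when single libraries were left out, 4 without NA 2 and PFC 3 together, and 0 without RSC 2, RSC 3 and VHN 3 together. The share of all genes called was 10.1% to 14.7%, 15.9% and 4.66% in these fits. The 4-group count was 2, or 3 with DESeq2, 0 to 3 when single libraries were left out, and 0 without the same 3 libraries. By this test 1243 of 13916 genes were called in the main fit and 2408 of 13916 with DESeq2. It called 892 to 1472 genes when single libraries were left out, of 14650 to 14800 tested, and 446 of 16007 without those 3. The 3 pairwise calls became 5 without a filter, 9 with DESeq2, 0 to 7 when single libraries were left out, 7 without NA 2 and PFC 3, and 0 without RSC 2, RSC 3 and VHN 3. For the pairwise counts, shares of all genes were taken in the main fit only. Over all lists, 64 genes were called, 49 to 73 when single libraries were left out and 25 without RSC 2, RSC 3 and VHN 3. In these fits, in the same order, 14.2%, 10.1% to 14.7% and 4.66% of all genes were called. The mitochondrial ribosome list gave 17 calls with DESeq2, against 10, while DESeq2 called 19.6% of all genes, against 14.2%. The log2 difference of Yars2 ranged from −0.52 to 0.12 when single libraries were left out. It turned to 0.12, 0.06, 0.08 and 0.02 without NA 2, PFC 1, PFC 2 or RSC 3, and to 0.19 without RSC 2, RSC 3 and VHN 3. Fits with fewer libraries estimate the spread from fewer samples, and the cause of these changes was not tested.

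Replicate numbers did not pair the libraries: 0 of 18 same-number pairs had deviations correlated above 0.1 (−0.03 to 0.04), and 2 of 12 libraries correlated best with their own number. With the replicate block, the synthetase calls stayed at 2, 2 and 3, the mitochondrial DNA list went from 1 call to 0 and the ATF4 list from 0 to 1, as it also did without a filter. Pooled Lars2 in single cells was 78.4 CPM, 76.4 CPM in wells with at least 3000 detected genes and 128.4 CPM on plate Q7 alone. The split of wells by Fn1 was not run. All alternatives that leave out several libraries, and the split by Nts, were chosen after seeing the data. Bulk depth limits the rarer mitochondrial synthetases, whose errors on the log2 scale exceeded 0.4 in all but Iars2.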

Other observations

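Both cytosolic and mitochondrial synthetases were readable in single wells to very different degrees. Sars, the seryl enzyme, was present in 88.5% of wells and Hars, the histidyl enzyme, in 84.8%, whereas Wars2 was present in 9.48% (exact binomial 95% interval 6.62% to 13.1%) and Vars2 in 11.2%. Nars was first among the synthetases by pooled counts in single cells and first after Lars2 by FPKM in bulk, and in both tables Lars2 was the highest mitochondrial member. In the wells split by Nts and Kit, Nars had medians of 197.5 CPM with Nts alone and 179.3 CPM with Kit alone, and Farsb had 14.6 CPM and 19.0 CPM, or 18.1 CPM in both with the split at 50 CPM.

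Lars2 was not alone in ranking far higher in bulk than in single cells. Eif2s3x, Pcdha11 and Sstr4 had larger log2 ratios between the separately scaled tables (7.08, 7.05 and 6.57, named after their values were seen). Each of these stood between 1 and 2 CPM in single cells, while Lars2 stood at 78.4 CPM there.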
